A study of Mus musculus with 12 samples.

Results

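The mitochondrial ribosomal protein genes are the nuclear genes whose products build the ribosome of the mitochondrion. They were taken by symbol, as protein-coding genes named Mrpl or Mrps with a number and at most 1 further letter, and 78 genes of the reference annotation matched. Of these, 77 reached 10 counts in at least 4 libraries and form the set described here, 48 Mrpl genes and 29 Mrps genes. Mrpl53 fell short of the count minimum, and 87.97% of its exon bases lie inside another annotated gene on the same strand. All 77 members had at least 10 counts in all 12 libraries, and all 77 were among the 15477 genes tested for differences, out of 54146 gene records. They lie on 17 chromosomes, with 11 of them on chromosome 11.

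The mitochondrial ribosome translates the few mRNAs encoded by mitochondrial DNA, all of which specify subunits of the respiratory chain and ATP synthase. Its RNAs come from mitochondrial DNA, but its proteins are made in the cytosol and imported, so the respiratory chain depends on genes of both genomes. Mrpl symbols mark the large subunit, which joins amino acids, and Mrps symbols the small subunit, which reads the mRNA. Heart muscle is rich in mitochondria, and human mutations in several of these genes cause cardiomyopathy or combined respiratory chain deficiency.

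Polyadenylated RNA was sequenced from 12 mouse heart samples, 4 in each of 3 groups. TAC KO mice were knockouts of the long noncoding RNA Nron and had transverse aortic constriction (TAC), surgery that narrows the aorta and loads the left ventricle with pressure. TAC WT mice were wild type for Nron with the same surgery, and Sham WT mice were wild type with sham surgery. Hearts were taken 6 weeks after surgery. The sources used here do not state age, strain, sex, the design of the Nron allele or the part of the heart, nor whether replicates were separate animals. Knockout hearts after sham surgery were not analysed here. Libraries are numbered 1 to 4 within each group in accession order, as names only. Library totals ran from 28565856 to 35777820 counts in TAC KO, from 26288519 to 35945770 in TAC WT and from 27596898 to 35491024 in Sham WT. Nron itself had 0 counts in all 12 libraries, so its level did not check the labels. Markers of heart muscle were present throughout, with 7 cardiomyocyte markers summing to 63600 to 69000 CPM (counts scaled for library size) in TAC KO, 63900 to 67900 in TAC WT and 68500 to 78300 in Sham WT.

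Members were searched for sequence features at their starts because promoters of nuclear genes for mitochondrial proteins are known to carry sites for NRF1, for GABP, an ETS factor once called NRF2, and for YY1. RefSeq windows of 300 bases on GRCm38.p6, 250 before each start and 50 from it, were found for 68 of the 77 members, and 9 had none. Stretches of 150 bases from 4 members are shown, 130 before the RefSeq start and 20 from it, chosen to show these motifs in members that rose in the TAC KO hearts and to hold no exon of another gene. Capitals mark the matches. In Mrpl9 a pair of overlapping NRF1 matches runs together. Mrps18a holds an ETS match followed by a YY1 match after the start, Mrpl22 an ETS match followed by an NRF1 match, and Mrpl12 a single NRF1 match.
Mrpl9, chr3:94443206-94443355, plus strand: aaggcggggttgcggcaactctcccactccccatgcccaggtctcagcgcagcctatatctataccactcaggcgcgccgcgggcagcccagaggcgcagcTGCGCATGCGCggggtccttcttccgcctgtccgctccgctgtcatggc
Mrps18a, chr17:46110874-46111023, plus strand: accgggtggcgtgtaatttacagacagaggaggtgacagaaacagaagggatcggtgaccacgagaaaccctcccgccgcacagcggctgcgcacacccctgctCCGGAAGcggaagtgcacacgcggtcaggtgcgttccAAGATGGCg
Mrpl22, chr11:58171534-58171683, plus strand: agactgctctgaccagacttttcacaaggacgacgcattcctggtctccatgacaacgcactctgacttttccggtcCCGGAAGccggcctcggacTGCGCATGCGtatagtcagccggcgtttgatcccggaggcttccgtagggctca
Mrpl12, chr11:120484507-120484656, plus strand: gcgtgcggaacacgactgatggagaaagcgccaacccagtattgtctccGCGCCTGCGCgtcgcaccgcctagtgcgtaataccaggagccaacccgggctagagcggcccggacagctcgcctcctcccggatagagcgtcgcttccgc

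The ETS letters CCGGAAG were found on either strand in 33.8% of 74 member windows, against 8.86% of all 32851 windows. The YY1 letters AAGATGGC were in 16.2% of member windows against 2.75% of all. For NRF1, GCGC repeated after any 2 bases was in 18.9% against 6.23%, and TGCGCA followed by any base and GCG was in 13.5% against 3.14%. The NRF1 forms can overlap each other. In all, 44 of the 68 members held at least 1 of the NRF1, ETS or YY1 motifs. The SP1 letters GGGCGG were in 52.7% of member windows and 35.7% of all windows, while TATAAA was in 6.76% and 13.6%. The TCAAGGTCA letters of the estrogen-related receptors were in 0 of 74 member windows and in 0.423% of all. Member windows had a median GC content of 58.5%, against 52.7% over all windows, and the part of GC content in these shares was not tested. A match is a run of letters in this window and not a measured binding site.

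The 77 members together were at 4344, 4256, 4201 and 4418 CPM in the TAC KO libraries, at 3493, 3724, 3955 and 3630 CPM in TAC WT and at 4092, 3843, 3730 and 3695 CPM in Sham WT. Every TAC KO library lay above every library of both wild-type groups, whose ranges overlapped. The summed level averaged 4305 ± 95.6 CPM in TAC KO, 3701 ± 195 in TAC WT and 3840 ± 179 in Sham WT (SD, n = 4 each). The ratio of the means was 1.16 for TAC KO over TAC WT, 0.964 for TAC WT over Sham WT and 1.12 for TAC KO over Sham WT. Genes with Mrpl and with Mrps symbols had the same ratio of TAC KO to TAC WT, 1.16, with Mrpl sums of 3062 ± 67.5 in TAC KO and 2634 ± 133 in TAC WT and Mrps sums of 1243 ± 33.8 in TAC KO and 1067 ± 62.4 in TAC WT. The group mean was highest in TAC KO for 65 of the 77 members, against 35.4% of all tested genes, and in none of the 77 was it lowest there. In bulk heart tissue, fewer cells of a type and less RNA per cell cannot be told apart.

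**Figure D1:**
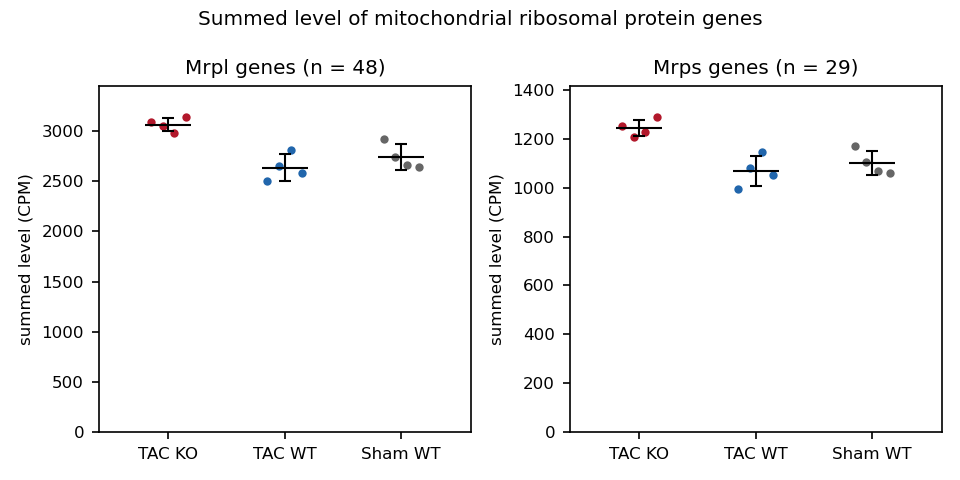
Summed level of the 48 Mrpl genes (left) and the 29 Mrps genes (right) in CPM, 1 point per library, with the mean and SD of 4 libraries in each group. TAC KO libraries lie between 2975 and 3132 CPM for Mrpl genes and between 1207 and 1286 for Mrps genes, above all libraries of TAC WT and Sham WT.

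Levels differed widely between members. Per kilobase of transcript, the highest mean over all libraries was that of Mrpl42, a large-subunit protein found only in mitochondrial ribosomes, at 279.7 CPM per kilobase, followed by Mrpl30 at 139.5 and the stalk protein Mrpl12 at 128.6. The lowest were the small-subunit proteins Mrps10 at 3.949 and Mrps25 at 6.068 and the exit tunnel protein Mrpl17 at 6.14. Transcript length here is that of the longest transcript in the basic reference annotation, and a heart that uses shorter forms would shift such values. For Mrpl17 it was 7300 bases, against a median of 4164 over its transcripts, and ranks by median length were not tested. Mean CPM ran from 4.395 to 186.3, with a median of 45.09, against 13.01 over all tested genes. Leaving Mrpl42 out of the sum kept the ratio of TAC KO to TAC WT at 1.16.

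Setting TAC KO against TAC WT addressed how knockout hearts differed from wild-type hearts after the same surgery. Of the 77 members, 40 rose, none fell and 37 did not pass an edgeR adjusted p of 0.05, while 33.0% of all tested genes passed, 15.7% higher and 17.3% lower. At an unadjusted p under 0.05, 51 members were higher and 1 was lower, and DESeq2 and limma voom each called 0 lower. The log2 change was above 0 for 74 of 77 members and its median was 0.207, against -0.002 over all tested genes. The changes were small, from 0.16 to 0.45 among the 40 that rose, and none of those 40 reached 1.5-fold. For 38 members every TAC KO library was above every TAC WT library, a pattern shown by 13.3% of tested genes. None lay wholly below, against 15.2% of tested genes. Markers of other cell types moved with this comparison, none of them at 0 in all 12 libraries. The 5 macrophage markers, 3 of which rose, summed to 111 to 147 CPM in TAC KO and 74.9 to 107 in TAC WT. The 5 endothelial markers summed to 857 to 994 CPM in TAC KO and 990 to 1230 in TAC WT. Their median log2 change was -0.155. Only Kdr passed, with a mean of 223.4 CPM in TAC KO against 342.9 in TAC WT. Pecam1 (203.5 against 226.6 CPM) and Emcn (51.75 against 59.51 CPM) were also lower, while Tie1 and Cdh5 were almost level. The 5 markers of smooth muscle and pericytes summed to 744 to 840 CPM in TAC KO and 840 to 1060 in TAC WT, where Rgs5 fell by 0.35 on the log2 scale, Vtn and Cnn1 rose by 0.85 and 1.18, and the median over the 5 was 0.28. The 4 skeletal muscle markers summed to 0.627 to 0.9 CPM in TAC KO and 0.954 to 13.1 in TAC WT. In TAC WT 4, Myh4 was at 7.716 CPM and Tnnt3 at 4.115. Only 1 of these 4 was tested, and it was lower in TAC KO (log2 -1.664). The part of all these markers in the result was not tested.

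**Figure D2:**
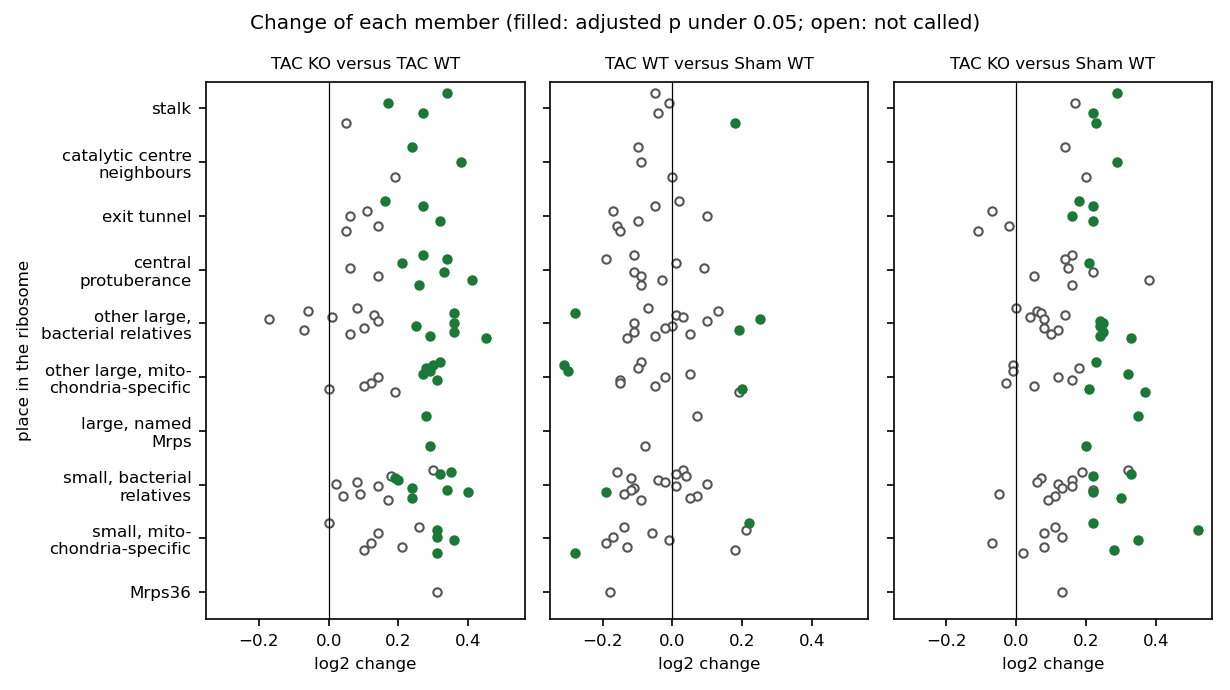
Log2 change of each member in the 3 comparisons, by place in the ribosome, with filled points at an edgeR adjusted p under 0.05 and open points for the others. In TAC KO versus TAC WT nearly all points lie right of 0, up to 0.45, whereas TAC WT versus Sham WT has 5 filled points on each side.

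The largest change was that of Mrpl9, a large-subunit protein with a bacterial relative, on chromosome 3 from 94443318 to 94451130 of GRCm38. It stood at 90.8, 90.2, 78.5 and 85.3 CPM in TAC KO, against 64.0, 62.8, 63.8 and 61.3 CPM in TAC WT, with Sham WT at 75.9, 69.5, 62.7 and 67.0 CPM. TAC KO lay apart from both wild-type groups. The log2 change against TAC WT was 0.45 (SE 0.07, edgeR adjusted p = 0.0003026). Mrps28, on chromosome 3 from 8802146 to 8923918 and related to bacterial protein S1, was at 40.9, 40.1, 38.5 and 41.7 CPM in TAC KO, against 28.8, 28.6, 33.5 and 30.9 CPM in TAC WT, and at 35.2, 33.8, 35.1 and 34.7 CPM in Sham WT. Its 3 groups did not overlap, with TAC KO highest and TAC WT lowest, and the log2 change of TAC KO against TAC WT was 0.40 (SE 0.06, edgeR adjusted p = 0.000312).

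Among proteins near the catalytic centre, where peptide bonds form, Mrpl2 and Mrpl16 rose and Mrpl3 did not pass. Mrpl2, on chromosome 17 from 46646229 to 46650139, was at 94.3, 90.1, 89.1 and 89.2 CPM in TAC KO, against 65.2, 67.9, 74.2 and 71.5 CPM in TAC WT. The groups did not overlap, and the log2 change was 0.38 (SE 0.06, edgeR adjusted p = 0.0005904). Mrpl16 rose by 0.24, and Mrpl3 averaged 99.6 ± 9.96 CPM in TAC KO and 87.1 ± 5.01 CPM in TAC WT (SD, n = 4 each), with overlapping ranges. Of 4 proteins of the stalk, which recruits translation factors, Mrpl10 (log2 0.34), Mrpl12 (0.27) and Mrpl11 (0.17) rose, and Mrpl54 was at 0.05. Mrpl12 averaged 189 ± 6.91 CPM in TAC KO and 157 ± 12 CPM in TAC WT.

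Of 8 proteins of the central protuberance, the crest of the large subunit, 6 rose, with a median log2 change of 0.263 over the 8. Mrpl55 had the largest of these, 0.41 (SE 0.14, edgeR adjusted p = 0.0327), at 87.2, 83.8, 87.3 and 71.3 CPM in TAC KO, against 66.0, 44.1, 67.1 and 70.7 CPM in TAC WT. Its groups are separated by under 1 CPM, with TAC WT 2 far below the rest of its group, and the call was lost on leaving out replicate 1, 2 or 3 of TAC KO or replicate 1 or 2 of TAC WT. Mrpl27 (0.34), Mrpl46 (0.33), Mrpl18 (0.27), Mrpl38 (0.21) and Mrpl58 (0.26), which is also a peptidyl-tRNA hydrolase that frees stalled ribosomes, were the others that rose. Mrpl48 was at 0.14 and Mrpl40 at 0.06. At the exit tunnel, through which new proteins leave, 3 of 7 rose, Mrpl4 by 0.32, Mrpl22 by 0.27 and Mrpl17 by 0.16. Mrpl45, which ties the ribosome to the inner membrane, was at 0.14, and Mrpl23, Mrpl24 and Mrpl47 lay between 0.05 and 0.11.

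The other large-subunit proteins fell into those with bacterial relatives, 6 of 15 of which rose, and those found in mitochondrial ribosomes only, 6 of 11 of which rose. In the first group Mrpl14, Mrpl28 and Mrpl34 rose by 0.36 each, as did Mrpl36 by 0.29 and Mrpl30 by 0.25, beside Mrpl9. Mrpl14, whose bacterial relative faces the small subunit, was at 58.3, 51.8, 55.0 and 58.3 CPM in TAC KO, against 39.2, 45.6, 47.5 and 41.8 CPM in TAC WT. Its groups did not overlap. In the same group 3 members had a log2 change below 0, Mrpl20 (-0.17), Mrpl33 (-0.07) and Mrpl13 (-0.06). The remaining Mrpl1, Mrpl15, Mrpl19, Mrpl21, Mrpl32 and Mrpl35 lay between 0.01 and 0.14 and did not pass. In the second group Mrpl37, Mrpl49, Mrpl39, Mrpl42, Mrpl41 and Mrpl43 rose by 0.27 to 0.32, while Mrpl52 was at 0.00, Mrpl51 at 0.10, Mrpl50 at 0.12 and Mrpl57 at 0.19. Mrpl44, whose human gene is mutated in infantile cardiomyopathy, averaged 62.2 ± 2.42 CPM in TAC KO and 56.5 ± 5.07 CPM in TAC WT, with overlapping ranges (log2 0.14, edgeR adjusted p = 0.1341).

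Of 16 small-subunit proteins with bacterial relatives, 8 rose, with a median log2 change of 0.196 over the 16. Besides Mrps28 these were Mrps11 (0.35), Mrps24 (0.34), Mrps12 (0.32), Mrps7 (0.24), Mrps21 (0.24), Mrps16 (0.20) and Mrps15 (0.19). Mrps12, whose bacterial relative sits at the decoding centre and carries streptomycin resistance mutations, was at 41.7, 35.0, 36.2 and 37.2 CPM in TAC KO, against 29.0, 28.8, 33.3 and 29.0 CPM in TAC WT. All TAC KO values were higher than all TAC WT values. Mrps5 (0.09), Mrps6 (0.04), Mrps17 (0.08), Mrps18c (0.02), Mrps2 (0.14), Mrps9 (0.17), Mrps14 (0.18) and Mrps10 (0.30) did not pass. Of these Mrps10, the member with the lowest level, had 4.95, 5.53, 4.53 and 5.21 CPM in TAC KO, against 4.35, 4.03, 4.045 and 4.005 CPM in TAC WT, without overlap (edgeR adjusted p = 0.07504).

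Of 10 small-subunit proteins specific to mitochondria, 4 rose, Mrps27 by 0.36 and Mrps23, Mrps26 and Mrps35 by 0.31 each. Mrps27 was at 61.1, 59.7, 53.7 and 60.1 CPM in TAC KO, against 44.5, 46.8, 47.9 and 43.5 CPM in TAC WT. The groups did not overlap, which was also so for Mrps26 and Mrps35. Mrps22 (0.26), Mrps33 (0.21), Mrps25 (0.14), Mrps31 (0.12), Mrps34 (0.10) and Mrps18b (0.00) did not pass. Mrps18a and Mrps30 carry Mrps names, although structures place both in the large subunit, and rose by 0.28 and 0.29. The paralogues Mrps18a, Mrps18b and Mrps18c, although grouped here under different roles, thus had log2 changes of 0.28, 0.00 and 0.02. Their difference was not tested. Mrps36, since assigned to the alpha-ketoglutarate dehydrogenase complex, averaged 11.4 ± 1.37 CPM in TAC KO and 9.19 ± 1.18 CPM in TAC WT and did not pass (log2 0.31, edgeR adjusted p = 0.05116).

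The call held for 32 of the 40 members on leaving out each of the 12 libraries in turn. Without TAC WT 2 Mrpl22 was lost (edgeR adjusted p = 0.05004), and Mrps21 was lost without TAC KO 1 or TAC WT 1. Mrpl38 was lost without replicate 1 or 2 of TAC KO or 1 or 4 of TAC WT, Mrps15 on leaving out any of 8 libraries, Mrpl11 and Mrps16 any of 10 and Mrpl17 any of 11, with adjusted p up to 0.1378 among these. Under every alternative run, 12 members held, Mrpl2, Mrpl9, Mrpl10, Mrpl27, Mrpl39, Mrpl49, Mrpl58, Mrps26, Mrps27, Mrps28, Mrps30 and Mrps35. The library kit marks strand, but the sources used here do not say whether counting used it, so reads of genes that overlap on opposite strands may not have been told apart. This touches Mrps25, with 69.8% of its exon bases in Nr2c2, and Mrps34, with 63.42% in Mapk8ip3, neither of which rose, and to a lesser degree Mrpl19, with 36% in Gcfc2, Mrpl43, with 33.36% in Twnk, Mrps18b, with 30.54% in Gm16279, Mrpl24, with 26.34% in Rrnad1, and Mrps27, with 24.18% in the noncoding 6430562O15Rik. Smaller overlaps join Mrpl14, with 11.17% in Tmem63b, and Mrpl18, with 10.09% in Tcp1, to genes of higher level. Tmem63b was at 129 CPM and Tcp1 at 201 CPM, against 50.7 for Mrpl14 and 94.8 for Mrpl18. Mrpl47, which did not pass, has 13.94% in Ndufb5, at 368 CPM against 29.0. Some overlaps are on the same strand, where a strand setting does not help. Mrps24, which rose, has 15.42% in Urgcp, at 78.7 CPM against 51.8, and Mrps34 has 36.97% in Nme3, at 0.024 CPM. The neighbours Mrpl46 and Mrps11 share 173 bases, and both rose.

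The libraries also differed in how levels varied with GC content and transcript length. Over all tested genes, the median log2 deviation in the quintile with the highest GC content minus that in the lowest quintile was 0.44, 0.136, 0.107 and 0.12 in TAC KO, and between -0.155 and -0.047 in the 8 wild-type libraries. By length, the difference between the longest and shortest quintiles was -0.26 to -0.148 in TAC KO and -0.04 to 0.195 in the wild-type libraries. The groups did not overlap on either measure. Members are short, with a median of 1316 bases against 2967 over tested genes, and 47 of 77 fell in the shortest quintile, while their median GC content of 49.9% was close to the 50% of tested genes. This trend and the genotype cannot be told apart.

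Within each quintile, members had a higher median than the tested genes of that quintile. In the shortest quintile the median log2 change of TAC KO against TAC WT was 0.265 for the 47 members and 0.135 for 3095 tested genes, and 57.4% of members rose against 23.6% of tested genes. In the longest quintile it was 0.112 for only 4 members and -0.178 for tested genes. By GC content, medians were 0.14 for 8 members against -0.178 in the lowest quintile and 0.298 for 12 members against 0.13 in the highest. For both, medians were lower in longer and higher in GC-richer quintiles, save for a step up among members at the second length quintile and a slight dip at the second GC quintile. Across the 77 members the log2 change had a Pearson correlation of 0.28 and a Spearman correlation of 0.36 with GC content, and -0.15 and -0.19 with log2 length, where points share the same 8 libraries.

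**Figure D3:**
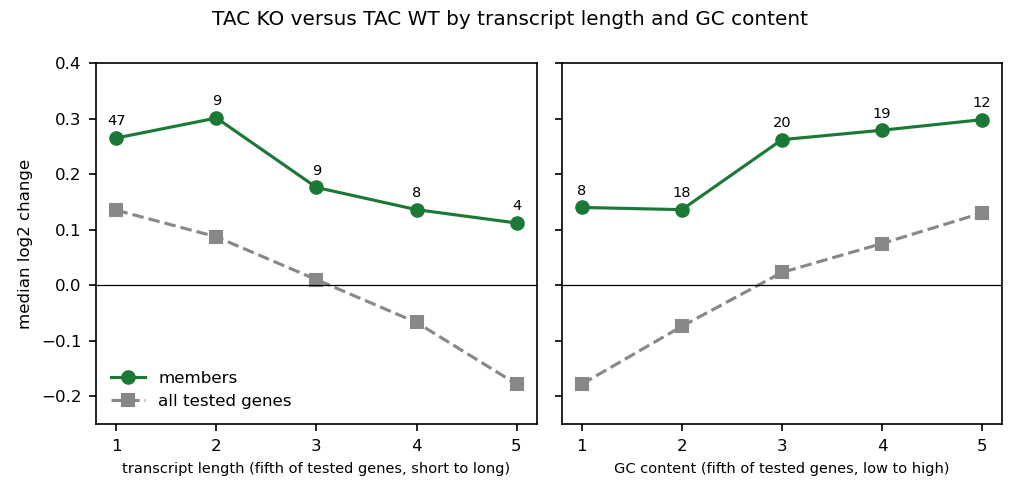
Median log2 change of TAC KO versus TAC WT for the members (circles, with the number of members) and for all tested genes (squares), in quintiles of tested genes by transcript length (left) and by GC content (right). Members lie above tested genes in each quintile, at 0.265 against 0.135 in the shortest and 0.112 against -0.178 in the longest.

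With the GC and length trends of each library removed as offsets, 28 members were higher in TAC KO than in TAC WT and 3 were lower, against 12.2% and 13.7% of tested genes. Of the 40 members that rose without offsets, 17 kept the call, among them Mrpl9 (0.39, edgeR adjusted p = 0.000874), Mrps28 (0.24) and Mrpl2 (0.18). Calls lost with the offsets included Mrpl28, at 0.15, Mrpl14, at 0.15, Mrps18a, at 0.09, and Mrpl4, at 0.10. A further 11 members, not called without offsets, were called higher with them, all with a transcript of at least 2877 bases, such as Mrps14 (0.34) and Mrpl3 (0.29), which DESeq2, limma voom and upper-quartile scaling also called higher. Mrpl20 (-0.31), Mrpl54 (-0.16) and Mrpl13 (-0.18) were called lower. With offsets the correlations across members turned round, to -0.47 for GC content and 0.53 for log2 length (Pearson). When length and GC content were taken as medians over transcripts, a choice made after the data were seen, 20 of the 40 calls were kept.

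**Figure D4:**
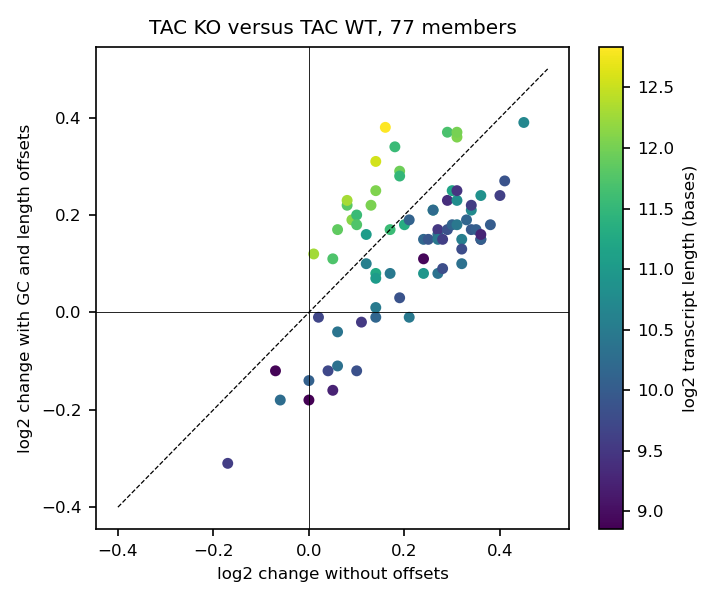
Log2 change of TAC KO versus TAC WT for the 77 members without offsets (horizontal) and with GC and length offsets (vertical), coloured by log2 transcript length. The dashed line marks equal values. Members in the shortest quintile lie on or below it and most longer ones above it.

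Setting TAC WT against Sham WT addressed how these genes differed in wild-type hearts between constriction and sham surgery. Only 10 of 77 members passed, 5 higher and 5 lower, while 19.7% of all tested genes passed, 9.67% being higher and 1555 of the 15477 lower, so the share of members called was below the background. The median log2 change was -0.048 over members. Those that rose were Mrpl20 (log2 0.25), Mrps18b (0.22), Mrpl52 (0.20), Mrpl33 (0.19) and the stalk protein Mrpl54 (0.18), and those that fell were Mrpl39 (-0.31), Mrpl42 (-0.30), Mrpl14 (-0.28), Mrps35 (-0.28) and Mrps28 (-0.19). Without each library in turn the number that rose was between 0 and 5, at 0 without TAC WT 4, 1 without Sham WT 1 or 2, 2 without TAC WT 1, Sham WT 3 or Sham WT 4 and 3 without TAC WT 3. The number that fell was 3 without TAC WT 1 or Sham WT 1, and with 1 surrogate variable or no low-count filter a single member rose. The calls that held on leaving out every library were those of Mrpl14, Mrpl39 and Mrps35. Cardiomyocyte markers, 2 of 7 lower, summed to 63900 to 67900 CPM in TAC WT and 68500 to 78300 in Sham WT. Fibroblast markers, 2 of 5 higher, summed to 589 to 769 CPM in TAC WT and 520 to 583 in Sham WT. The 1 skeletal muscle marker tested was higher. Of the endothelial, macrophage, and smooth muscle and pericyte markers, 0 passed. The part of these markers in the result was not tested.

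Mrpl39, grouped here with large-subunit proteins found only in mitochondrial ribosomes, was at 44.6, 48.9, 46.3 and 39.9 CPM in TAC WT. In Sham WT it was at 55.8, 55.5, 55.7 and 56.3 CPM. The groups did not overlap, and the log2 change was -0.31 (SE 0.07, edgeR adjusted p = 0.004078). Its TAC KO libraries were at 55.8, 57.0, 51.0 and 57.9 CPM, a log2 change of -0.01 against Sham WT. Mrps35 was at 57.4, 63.1, 70.0 and 62.9 CPM in TAC WT, against 86.4, 74.4, 71.6 and 76.2 CPM in Sham WT, and its TAC KO values were 76.9, 76.6, 79.5 and 80.5 CPM. Here too TAC WT was the low group, without overlap with Sham WT.

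Mrpl42, the member with the highest level, was at 146, 165, 183 and 154 CPM in TAC WT, against 216, 203, 193 and 185 CPM in Sham WT (log2 -0.30, edgeR adjusted p = 0.0161), and at 179, 203, 195 and 213 CPM in TAC KO. The ranges of TAC KO and Sham WT overlapped for most of their extent. In the other direction Mrpl20, whose bacterial relative acts early in assembly, was at 49.6, 53.9, 52.1 and 57.6 CPM in TAC WT, against 46.4, 42.3, 44.3 and 45.7 CPM in Sham WT (log2 0.25, edgeR adjusted p = 0.01713), a call lost without TAC WT 4 or Sham WT 2. Its TAC KO values of 46.5, 43.1, 46.9 and 52.5 CPM overlapped with both wild-type groups. The comparisons of TAC KO with TAC WT and of TAC WT with Sham WT share the TAC WT libraries, so a low TAC WT group moves the log2 changes of a member in opposite directions.

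**Figure D5:**
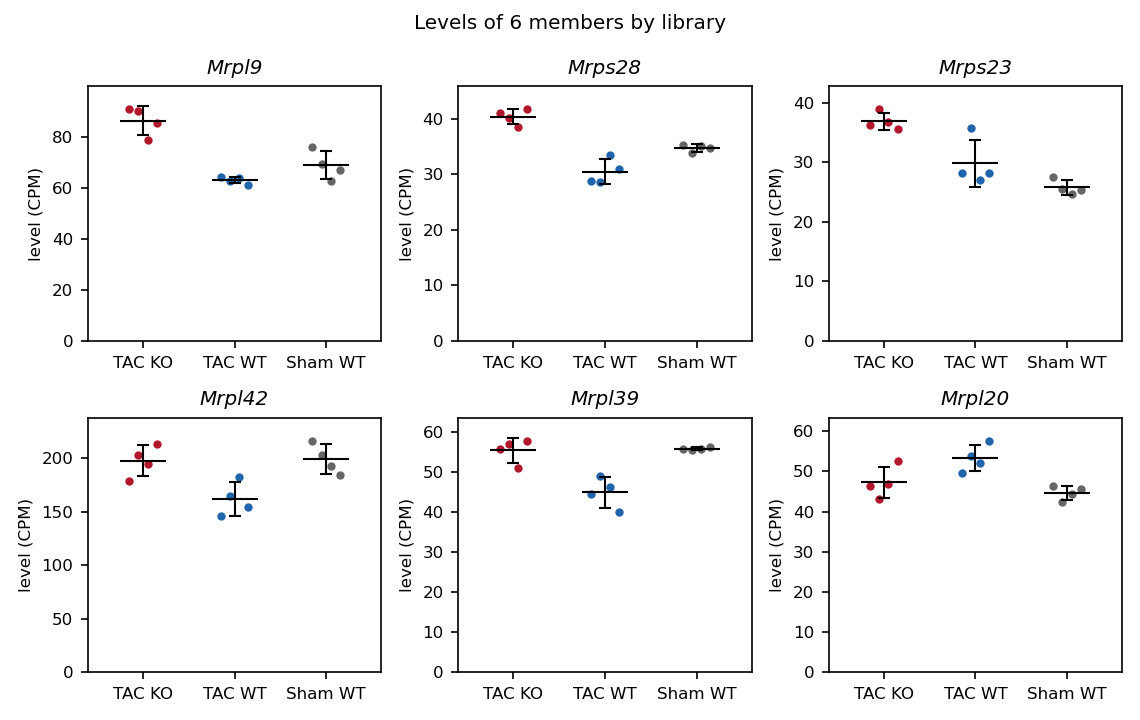
Levels in CPM of 6 members in each library, with the mean and SD of 4 libraries per group. Mrpl9 and Mrps28 are highest in TAC KO, Mrpl42 and Mrpl39 are lowest in TAC WT, Mrps23 has TAC WT 2 at 35.7 CPM apart from its group, and Mrpl20 is highest in TAC WT.

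The comparison of TAC KO with Sham WT set hearts differing in genotype and surgery side by side. In it 29 members rose, none fell and 48 did not pass, while 27.6% of all tested genes passed, 12.8% higher and 14.8% lower. At an unadjusted p under 0.05, 43 were higher and 0 lower, and DESeq2 and limma voom called 0 lower. The median log2 change was 0.159, and 69 of 77 were above 0. For 30 members every TAC KO library was above every Sham WT library, against 14.3% of tested genes. The number that rose was 16 without Sham WT 3 and 17 without Sham WT 4. Markers of several cell types moved with this comparison. The fibroblast markers, 3 of 5 higher, summed to 653 to 922 CPM in TAC KO and 520 to 583 in Sham WT, and the macrophage markers, 3 of 5 higher, to 111 to 147 CPM in TAC KO and 88.4 to 103 in Sham WT. Of the cardiomyocyte markers 3 of 7 were lower and 1 higher, of those of smooth muscle and pericytes 3 of 5 were higher and 1 lower, and of the endothelial markers 1 of 5 was lower. None of these markers was at 0, and their part in the result was not tested.

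The small-subunit protein Mrps23, on chromosome 11 from 88204388 to 88211507, had the largest change, log2 0.52, at 36.3, 38.9, 36.8 and 35.6 CPM in TAC KO, against 27.6, 25.5, 24.7 and 25.3 CPM in Sham WT. The groups were well apart (SE 0.08, edgeR adjusted p = 0.000518). In TAC WT it was at 28.2, 35.7, 27.0 and 28.3 CPM, with TAC WT 2 within the range of TAC KO. Among the members that rose Mrpl57 followed, at 33.25, 32.24, 27.99 and 29.23 CPM in TAC KO, against 25.5, 23.4, 23.7 and 22.2 CPM in Sham WT (log2 0.37, edgeR adjusted p = 0.003256). Mrps18a was at 67.4, 70.5, 70.6 and 72.5 CPM in TAC KO, against 56.6, 56.0, 55.1 and 52.3 CPM in Sham WT (log2 0.35, edgeR adjusted p = 0.0004006). For both, no TAC KO library reached down to the Sham WT range.

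Mrps27 (log2 0.35), Mrps12 (0.33), Mrpl9 (0.33), Mrpl43 (0.32) and Mrps7 (0.30) completed the 8 largest changes among members that passed. Mrpl55 (0.38) and Mrps10 (0.32) did not pass. By place in the ribosome, 3 of 4 stalk proteins and 4 of 7 at the exit tunnel rose, beside 12.8% of all tested genes. Near the catalytic centre 1 of 3 rose, and in the central protuberance 1 of 8, which is near that share. Of small-subunit proteins, 4 of 16 with bacterial relatives and 4 of 10 specific to mitochondria rose. Mrps18b rose by 0.22 and Mrps34, which overlaps Mapk8ip3, by 0.28, each with overlapping ranges of the groups. Leaving out each library in turn, 15 of the 29 calls held. With GC and length offsets 18 members were higher, against 9.45% of tested genes, and 10 of the 29 calls were kept, those of Mrpl9, Mrpl17, Mrpl30, Mrpl43, Mrpl57, Mrps14, Mrps18a, Mrps23, Mrps27 and Mrps30.

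Genes that work with the mitochondrial ribosome were followed in lists for TAC KO against TAC WT. Of 23 assembly factors and rRNA modification enzymes, 15 rose and none fell, with a median log2 change of 0.258, beside the 15.7% of all tested genes that rose. With GC and length offsets 9 of the 23 were higher, against 12.2% of tested genes. Mrm2, an rRNA methyltransferase, was at 16.0, 12.6, 13.8 and 14.3 CPM in TAC KO, against 9.51, 11.2, 9.80 and 9.15 CPM in TAC WT, without overlap (log2 0.52, edgeR adjusted p = 0.001239). The pseudouridine synthase Rpusd4 rose by 0.36, the assembly factor Rbfa by 0.37 and the methyltransferase Nsun4 by 0.32. Of 17 mitochondrial aminoacyl-tRNA synthetases, 10 rose, and 10 were higher with the offsets. The prolyl enzyme Pars2 was at 5.70, 5.79, 5.24 and 5.44 CPM in TAC KO, against 2.98, 4.25, 3.57 and 3.67 CPM in TAC WT (log2 0.62, edgeR adjusted p = 0.001092), and Sars2, Cars2 and Fars2 rose by 0.52, 0.39 and 0.35.

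Of 12 translation factors, 4 rose, or 3 with the offsets, the cytochrome oxidase activator Taco1 by 0.46, the elongation factor Tufm by 0.33, the initiation factor Mtif3 by 0.32 and the exchange factor Tsfm by 0.20, the last being lost on leaving out replicate 1 or 2 of TAC KO or 1 of TAC WT. None of the 5 further ribosome proteins under other symbols passed with edgeR, with 2 higher at an unadjusted p under 0.05, 0 called by DESeq2 and 2 by limma voom. These were Dap3 (0.17), Ptcd3 (0.19), Chchd1 (0.08), Gadd45gip1 (0.14) and Aurkaip1 (-0.01). Of 57 genes in these 4 lists, 29 rose, or 18 without TAC WT 1 and 19 with no low-count filter. For scale, 21 of 37 nuclear subunits of respiratory complex I and 13 of 77 cytosolic ribosomal proteins rose in the same comparison, with medians of 0.204 and 0.121. The share of cytosolic ribosomal proteins that rose, 16.9%, was near the 15.7% of all tested genes, and with the offsets 9 complex I subunits and 5 cytosolic ribosomal proteins were higher.

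Of 12 genes for mitochondrial DNA transcription and RNA upkeep, 3 rose, beside 15.7% of all tested genes. These were the transcription factor Tfb2m and the RNA polymerase Polrmt, by 0.36 each, and the mRNA stability factor Lrpprc, by 0.24. The Lrpprc call was lost on leaving out replicate 2 or 4 of TAC KO or 3 or 4 of TAC WT. Tfam, which packages mitochondrial DNA, was at 0.01. Of the 13 mitochondrially encoded mRNAs 9 were tested, and none of them passed with edgeR (median 0.165). At an unadjusted p under 0.05, 2 were higher. Both DESeq2 and limma voom called 2 higher, and 4 were called higher with GC and length offsets. Levels of the 13 were very uneven, and the 9 tested include some of very low level. Mean CPM over all libraries was 0.775 for mt-Co2 and 2.586 for mt-Atp6, against 466.6 for mt-Nd6 and 51290 for mt-Co1. The mean of mt-Co3 was 28.49 CPM, with 308.1 in TAC WT 4, and those of mt-Atp8, mt-Nd3 and mt-Nd4l were at most 0.03957. The reason was not tested. Of 9 regulators, 1 rose and 3 fell, beside 15.7% of all tested genes higher and 17.3% lower. The receptor Esrra rose by 0.34. The coactivator Pprc1 fell by 0.45, the GABP subunit Gabpb1 by 0.29 and the coactivator Ppargc1b by 0.25. The Ppargc1b call was lost on leaving out any of 9 libraries. With GC and length offsets the calls of Esrra, Gabpb1, Taco1, Rbfa and Fars2 were lost, and that of Gabpb1 was also lost with limma voom. Among genes of factors whose motifs were searched, Nrf1 (-0.08), Gabpa (-0.12) and Yy1 (-0.08) did not pass, while Esrra and Gabpb1 did, as given above. Of the 36 members with a window that rose in TAC KO against TAC WT, 10 held the YY1 letters, 14 the ETS letters, 9 the first NRF1 form, 4 the second and 17 the SP1 letters. Of the 32 other members with a window, 2 held the YY1 letters, 11 the ETS letters, 5 the first NRF1 form, 6 the second and 17 the SP1 letters. These differences were not tested.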

How the data were processed

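Polyadenylated RNA from 250 ng of total heart RNA was made into strand-marking libraries, per the labels' protocols, and 12 libraries were analysed, 4 per group. The deposited values are raw counts per gene record. Per the submitters' processing notes, the build was GRCm38 and the tools included featureCounts 1.6.4, STAR, Trim Galore 0.5.0, bcl2fastq, StringTie 1.3.5, FastQC 0.11.8, DESeq2 and MultiQC 1.7. The sources used here do not give the annotation release or strand setting of the counting. Library totals of 26288519 to 35945770 counts put 3 counts at 0.0835 to 0.1141 CPM, and the common biological coefficient of variation was 0.113. Of 54146 records, 54079 matched a symbol, and the 67 others were kept by identifier.

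CPM used library sizes scaled by the trimmed mean of M values (TMM). One edgeR 4.0.16 quasi-likelihood fit (R 4.3.3) covered the 3 groups and the 15477 genes passing edgeR's filterByExpr, with no covariate. A gene was called at a Benjamini-Hochberg adjusted p under 0.05, over all tested genes of a comparison. The p-values measure the spread between these libraries, since nothing says that replicates are separate animals. Length and GC content came from 1 transcript of each gene, the longest in the basic reference annotation. Trends fitted per library as splines with 5 degrees of freedom gave offsets. Similar gene copies were searched with minimap2 2.31-r1302, at 95% identity over 50% of the transcript. The pseudogene copies with a value had mean levels of at most 0.586 CPM, and the other matches were genes that overlap a member in place. A pseudogene copy of Mrps10, the member with the lowest level, was 97.85% identical over 50.13% of its transcript and had no value. Whether members lost reads that also match a copy was not tested. Motifs were counted in RefSeq promoter windows. The fitting was tested on simulated data.

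The members, lists and tests were chosen with earlier results of these data known. Named genes were the 8 called members with the highest and the 8 with the lowest change per comparison, members at least 1.5-fold apart without overlap, a fixed set by role, the 3 highest and lowest by level per kilobase, up to 8 calls each removed or added by offsets, and up to 4 genes per list. Members outside this rule were named after their values were seen, to account for each role. Alternatives were other scalings and filters, the compared groups alone, offsets, 1 surrogate variable (sva 3.50.0), limma 3.58.1 voom, DESeq2 1.42.0 and leaving out each library.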

Additional observations from a re-analysis of the deposited data

Results flagged for a closer look

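In 7 of 123 groups of 4 libraries, 1 library stood apart from the other 3 by a gap large for the range of its group, and chance flags about 1 in 20 groups. Mrps23 stood at 35.73 CPM in TAC WT 2, above 27.0 to 28.3 CPM in the rest of TAC WT and inside its TAC KO range. Mrps12 was at 33.34 CPM in TAC WT 3, against 28.8 to 29.0 CPM in the other TAC WT libraries and below all of TAC KO. Mrpl11 was at 42.17 CPM in TAC WT 3, and Mrps10 at 4.347 CPM in TAC WT 1. In Sham WT, Mrpl52 was at 23.77 CPM in Sham WT 3 and Mrps25 at 39.31 CPM in Sham WT 1. The GC trend of TAC KO 1, as the difference between the highest and lowest quintiles of GC content, was 0.44, against 0.107 to 0.136 in the rest of TAC KO.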

How the results depend on the processing

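No paired analysis was possible because the labels carry no replicate numbers and the numbers used here follow accession order. Leaving out each library in turn, TAC KO against TAC WT gave 33 to 46 members higher, 0 to 1 lower (1 without TAC KO 4), a median log2 change of 0.188 to 0.262, and 18 to 28 of the 57 other genes of mitochondrial translation higher. TAC WT against Sham WT gave 0 to 5 members higher, 3 to 6 lower, a median of -0.088 to -0.011 and 0 to 6 other genes lower, with 0 without TAC WT 1, Sham WT 1 or Sham WT 2, 1 without TAC WT 4 and 2 without Sham WT 4. TAC KO against Sham WT gave 16 to 33 members higher, a median of 0.147 to 0.201 and 6 to 16 other genes higher, with 6 without Sham WT 3 or Sham WT 4 and 9 without Sham WT 2. In TAC KO against TAC WT, members lower numbered 1 with a 1 CPM filter, 3 with GC and length offsets, 1 with GC offsets, 3 with length offsets and 2 with offsets from median transcripts, and other genes higher numbered 19 with no filter and 18 with median transcripts, with 1 lower under all offsets that include length. In TAC WT against Sham WT, members higher numbered 1 with no filter or 1 surrogate variable and members lower 8 with limma voom, while other genes lower numbered 2 with no filter, 7 with GC and length offsets, 8 with GC offsets or median transcripts, 0 with the surrogate variable, 11 with voom and 7 with DESeq2. In TAC KO against Sham WT, members higher numbered 18 with GC and length offsets, 16 with length offsets and 17 with median transcripts, which called 1 lower, at median log2 changes of 0.078, 0.104 and 0.085, and other genes higher numbered 8 with no filter, 9, 8 and 4 with those offsets, with 0 lower under GC and length or GC offsets and 2 lower under length offsets or median transcripts. Signs turned for members near 0 in TAC KO against TAC WT. With GC and length, GC, length and median-transcript offsets, Mrps18b was at -0.139, -0.053, -0.12 and -0.127, Mrps34 at -0.119, -0.053, -0.018 and -0.121 and Mrpl54 at -0.162, -0.101, -0.057 and -0.167. Mrps18b was also at -0.001 without mitochondrially encoded genes and -0.006 with a 1 CPM filter, and ran from -0.052 to 0.042 on leaving out libraries. Mrps18c was at -0.005 with GC and length offsets, -0.093 with length offsets and -0.026 to 0.072 on leaving out libraries, and Mrpl38 at -0.009 and -0.006 with GC and length and median-transcript offsets. In TAC KO against Sham WT, Mrpl20 was at -0.06, -0.03 and -0.031 with GC and length, length and median-transcript offsets. The cause was not tested. All 77 members had at least 10 counts in each library.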

Other observations

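Among the 57 other genes of mitochondrial translation, 0 rose and 4 fell in TAC WT against Sham WT with edgeR, a share no higher than that of all tested genes, of which 1555 of 15477 fell. These were the GTPase Eral1 (log2 -0.25) and the methyltransferase Mrm1 (-0.32), both of which act on mitochondrial rRNA, and the synthetases Pars2 (-0.36) and Sars2 (-0.38). Without TAC WT 1, Sham WT 1 or Sham WT 2 none of the 57 was called lower. Complex I had 6 of 37 nuclear subunits lower in the same comparison, or 13 lower and 1 higher with GC and length offsets, against 11.7% lower and 10.9% higher over all tested genes with them. In TAC KO against Sham WT, 14 of the 57 rose and 1 fell, the GTPase Gtpbp10 (-0.35), while 12.8% of all tested genes rose and 14.8% fell. With GC and length offsets 9 of the 57 were higher and the Gtpbp10 call was lost. Of 77 cytosolic ribosomal proteins 29 rose in that comparison, or 5 with the offsets, where 9.45% of tested genes were higher.

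Of the 9 regulators, TAC WT had higher Pprc1 (log2 0.48) and Myc (1.43) than Sham WT and lower Esrra (-0.27), Gabpa (-0.24) and Ppargc1a (-0.43). Of 25 alternatives, 4 lost the Esrra call, 6 the Gabpa call and 9 the Ppargc1a call, all of those for Esrra and Gabpa and 7 of those for Ppargc1a by leaving out a TAC WT or Sham WT library, and none lost the calls of Pprc1 or Myc. In TAC KO against TAC WT, a comparison that shares the TAC WT libraries, Pprc1 was at -0.45, Esrra at 0.34 and Ppargc1a at -0.22, the last of which did not pass. In TAC KO against Sham WT, Ppargc1a, Ppargc1b and Gabpa fell and Myc rose, beside 14.8% of all tested genes lower and 12.8% higher. Of 25 alternatives, 3 lost that Ppargc1b call, 6 that Myc call and none those of Ppargc1a or Gabpa.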
